A study of Homo sapiens with 18 samples.

Results

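Chromatin at 6 genes that encode transcription factors of the myeloid lineage, SPI1, CEBPA, CEBPE, GFI1, IRF8 and RUNX1, was compared between untreated and maltonis-treated NB4 cells. The genes were chosen by name, and each was taken with 20 kb on either side in the hg19 assembly, the build of the peak lists. In all, 307 of the 501863 peaks in 18 lists overlapped these windows, of which 70 of 100799 were H3K4me3 peaks, 175 of 207776 were H3K27ac peaks and 62 of 193288 were H3K9me3 peaks. NB4 is an established line of acute promyelocytic leukemia, an arrest at the promyelocyte stage, and stands here as a single line. Chromatin immunoprecipitation and sequencing was done for each of the 3 histone marks on 3 libraries of untreated cells and 3 libraries of cells given maltonis, a maltol-derived hydroxypyrone, at 10 µM for 24 h. Both groups were the same cells in the same medium, and no other agent was named. Each group is a biological triplicate by the study's account, of the 1 line.

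H3K4me3 marks the starts of active or poised genes, H3K27ac marks active promoters and enhancers, and H3K9me3 marks repressed chromatin. SPI1 encodes PU.1, an ETS factor required for both granulocytes and macrophages, whose dose is set in part by an upstream regulatory element. CEBPA encodes the factor that starts granulocytic differentiation, and CEBPE acts later, at the promyelocyte and later stages, on the genes of the secondary granules. GFI1 encodes a repressor that favours the granulocyte over the macrophage, IRF8 encodes a factor that favours monocytes and dendritic cells, and RUNX1 encodes the DNA-binding partner of CBFB that stands above the others in blood formation. RUNX1 is transcribed from a pair of promoters, the distal one at the outer end of the gene and the proximal one inside it, and the genes of CEBPA and IRF8 are each known to have an enhancer downstream.

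On hg19 the coordinates were chr11:47376409-47400127 for SPI1, chr19:33790840-33793470 for CEBPA, chr14:23586515-23588820 for CEBPE, chr1:92940318-92952433 for GFI1, chr16:85932774-85956211 for IRF8 and chr21:36160098-36421595 for RUNX1. All but IRF8 are on the minus strand. The windows were between 42306 bp (CEBPE) and 301498 bp (RUNX1) long. Positions below are distances from the gene start in the direction of transcription, so that a negative distance lies upstream.

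Promoter sequences from RefSeq (GRCh38.p14, 250 bases before to 50 after a start) were matched by symbol for 5 of the 6 genes, with 8 entries in all. No coordinate was carried over to hg19. The 4 printed here show how different the base composition is between these genes: the CpG-rich starts of CEBPA and RUNX1, the CpG-poor start of CEBPE and the outermost start of GFI1. Whether a sequence lies under a peak was not tested. Every CG dinucleotide is in capitals, and each sequence is on the minus strand, read 5′ to 3′. The RUNX1 entry (chr21:34888650-34888949) lies 160603 bp inside the RefSeq gene, at the proximal promoter. The others are at chr19:33302485-33302784 for CEBPA, chr14:23119206-23119505 for CEBPE and chr1:92486876-92487175 for GFI1.
RUNX1 proximal: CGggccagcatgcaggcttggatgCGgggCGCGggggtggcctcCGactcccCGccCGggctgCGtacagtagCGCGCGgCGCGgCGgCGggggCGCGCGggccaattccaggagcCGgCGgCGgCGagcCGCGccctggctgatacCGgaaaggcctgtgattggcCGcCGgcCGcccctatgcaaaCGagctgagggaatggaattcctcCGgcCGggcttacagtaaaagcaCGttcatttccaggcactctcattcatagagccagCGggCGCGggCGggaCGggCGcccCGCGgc
CEBPA: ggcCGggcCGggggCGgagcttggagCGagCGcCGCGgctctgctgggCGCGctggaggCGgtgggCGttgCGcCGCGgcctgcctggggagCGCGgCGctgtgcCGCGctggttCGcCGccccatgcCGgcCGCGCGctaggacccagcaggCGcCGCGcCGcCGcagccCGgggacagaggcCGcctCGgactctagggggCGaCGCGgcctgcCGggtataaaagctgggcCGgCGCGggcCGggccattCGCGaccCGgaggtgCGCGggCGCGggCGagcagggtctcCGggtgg
CEBPE: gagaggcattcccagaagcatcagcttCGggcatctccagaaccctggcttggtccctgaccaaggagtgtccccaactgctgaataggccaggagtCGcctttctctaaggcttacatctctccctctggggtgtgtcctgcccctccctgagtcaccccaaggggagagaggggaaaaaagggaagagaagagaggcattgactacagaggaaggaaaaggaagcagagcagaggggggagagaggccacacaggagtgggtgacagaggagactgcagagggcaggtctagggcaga
GFI1 outermost: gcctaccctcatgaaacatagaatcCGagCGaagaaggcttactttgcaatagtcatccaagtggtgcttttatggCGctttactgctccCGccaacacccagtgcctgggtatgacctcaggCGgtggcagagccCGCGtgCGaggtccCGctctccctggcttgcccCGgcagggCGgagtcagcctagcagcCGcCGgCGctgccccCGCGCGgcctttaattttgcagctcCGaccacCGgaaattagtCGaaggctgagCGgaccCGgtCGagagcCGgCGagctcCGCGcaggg

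These sequences held 40 CG dinucleotides for RUNX1, 50 for CEBPA, 2 for CEBPE and 27 for GFI1, against a median of 14 over 35116 RefSeq promoters. The CEBPA promoter stood at the 99.0 percentile of all promoters and the CEBPE promoter at the 18.2 percentile. Short motifs were searched on both strands. GAGGAA, a core that PU.1 can bind, was present once in the CEBPE and once in the RUNX1 sequence, and is held by 27.9% of all promoters. TGTGGT, a RUNX core, and TTGCNNAA, a pattern of C/EBP sites, were in none of the 4 sequences, and 13.1% and 10.5% of all promoters hold them. Among the entries not printed, a GFI1 start 826 bp inside the RefSeq gene held 1 RUNX core and 2 C/EBP patterns. A GFI1 start 3111 bp inside held 1 GAGGAA, and 1 IRF8 entry held 1 RUNX core. These matches describe the letters and not binding.

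Peaks were listed for each library separately. The H3K4me3 lists held 15841 to 17755 peaks, with a fold enrichment and a q-value and no count. The H3K27ac lists held 17974940 to 20773316 reads in their peaks and the H3K9me3 lists 2595814 to 3366296, so H3K9me3 values rest on fewer reads. Over the whole genome the maltonis H3K27ac lists covered 171.9 to 185.0 Mb and the untreated lists 217.8 to 229.8 Mb, and every H3K27ac length below has to be read beside this difference.

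Of the 6 genes RUNX1 had the lowest ratio of H3K27ac coverage between maltonis-treated and untreated cells. Untreated libraries had 124000, 143200 and 133400 bp of the RUNX1 window under H3K27ac peaks, and maltonis libraries had 73000, 78200 and 67000 bp. The groups were far apart, and the maltonis mean was 0.545 of the untreated mean (133533 ± 9601 bp against 72733 ± 5605 bp, SD, n = 3 each, exact two-sided permutation p = 0.1, the smallest that 3 against 3 libraries allow). SPI1 went from 44927, 44327 and 44127 bp to 35127, 34327 and 32527 bp (ratio 0.765, exact permutation p = 0.1). IRF8 went from 41211, 44211 and 47811 bp to 38211, 32611 and 24811 bp (ratio 0.718, exact permutation p = 0.1). In both genes every maltonis library lay under every untreated one, with a much wider spread between the IRF8 libraries. CEBPA had 18961, 23361 and 19761 bp in untreated cells and 17361, 16561 and 16761 bp after maltonis (ratio 0.816, exact permutation p = 0.1), which is a smaller difference without overlap.

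At CEBPE and GFI1 the H3K27ac coverage of the groups overlapped. CEBPE had 22286, 25486 and 22486 bp untreated and 21286, 22686 and 22686 bp after maltonis (exact permutation p = 0.6). GFI1 had 38083, 40083 and 37483 bp untreated and 35083, 38683 and 35083 bp after maltonis (exact permutation p = 0.3). Thus 4 of 6 genes were lower without overlap and 0 were higher. As background, 34.5% of all 50 kb stretches of the genome with an H3K27ac peak were lower without overlap and 4.76% were higher, a reference chosen after the data were seen and one of a fixed length, unlike the windows. With 5 kb flanks the IRF8 groups overlapped (exact permutation p = 0.3), and with peaks required to lie at least 50% inside the window those of SPI1 (exact permutation p = 0.4) and CEBPA (ratio 1.00, exact permutation p = 1) did, which left 2 of 6 genes lower.

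**Figure D1:**
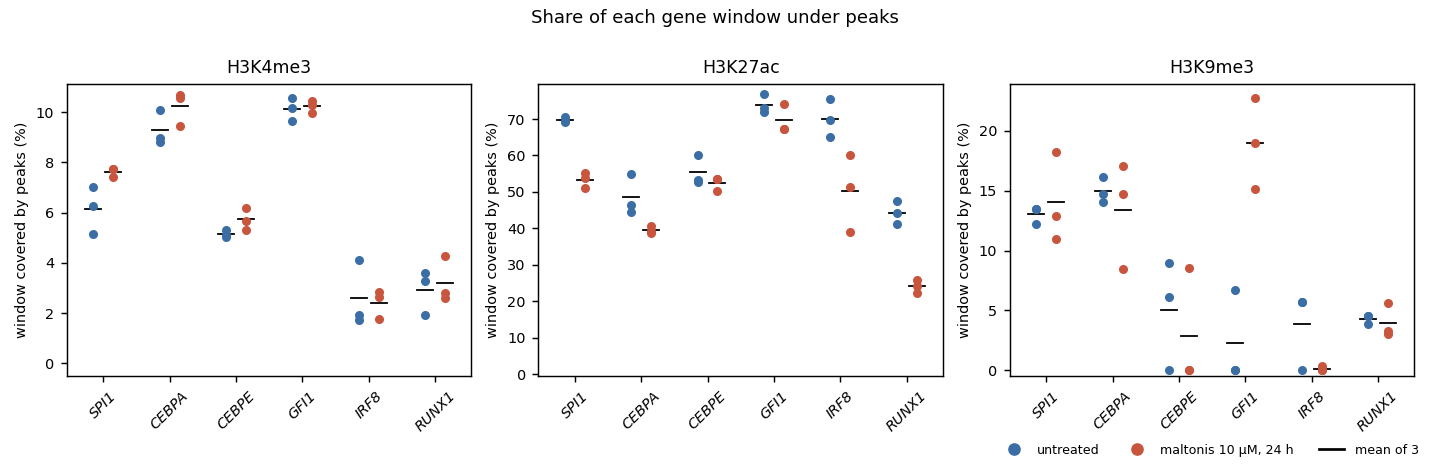
Percent of each gene window covered by peaks (y axis) for the 6 genes (x axis), in 1 panel per mark; points are libraries and bars the mean of 3. RUNX1, IRF8, SPI1 and CEBPA have every maltonis point (red) under every untreated point (blue) for H3K27ac, and GFI1 has every maltonis point above for H3K9me3.

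To compare amounts as well as lengths, peaks of the 6 libraries were merged where they overlapped, reads were summed in each merged region, and regions called in all 6 libraries were fitted with edgeR over the genome. A region was called where the Benjamini-Hochberg adjusted p (FDR) was at most 0.01 and the log2 fold change at least 0.58 either way. Regions of each mark were assigned to a gene by overlap with its window. They were kept whole beyond its edge, while the coverage above was clipped to the window. Neighbouring genes were not annotated, so a region can belong to a neighbour. The 6 windows held 22 H3K27ac regions, of which 15 were called in all 6 libraries. By edgeR, 4 of these 15 were lower after maltonis and 0 were higher, beside 19.2% lower and 8.18% higher over the 20018 regions of the genome. At an unadjusted p under 0.05, 11 of the 15 passed (10 lower, 1 higher), a share near the 70.5% of all regions, and DESeq2 called 4 lower and 0 higher, beside 20.6% and 8.55%. The median of their log2 fold changes was -0.15 over the 15 regions and -0.01 over all regions. With upper-quartile scaling the genome-wide calls went from 1637 higher and 3840 lower to 984 higher and 4679 lower, and the median of all regions moved to -0.14.

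Of the 4 lower regions 3 were in RUNX1. The region over its distal promoter (chr21:36405401-36426600, -5.01 to 16.2 kb) held 2175, 2252 and 2072 reads in untreated libraries and 1027, 1028 and 1046 in maltonis libraries. The groups were well separated, and the log2 fold change was -1.02 (SE 0.0555, edgeR FDR = 3.85e-07). Near the 3′ end, the region at 200.2 to 227.0 kb (chr21:36194601-36221400) held 1781, 1824 and 1794 reads and then 999, 1229 and 1068, which gave -0.67 on the log2 scale (SE 0.0406, edgeR FDR = 7.57e-07). The last region, at 228.6 to 250.2 kb (chr21:36171401-36193000), held 388, 673 and 600 reads and then 122, 302 and 126, a log2 fold change of -1.56 with a far larger SE of 0.298 (edgeR FDR = 0.00114). Each of these 3 regions was lower in every maltonis library than in any untreated one.

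The proximal promoter of RUNX1 differed from the distal one. The region that holds it (chr21:36232801-36268000, 153.6 to 188.8 kb) had 4120, 4485 and 4353 reads in untreated and 3861, 4444 and 3887 in maltonis libraries. These reads overlapped, and the log2 fold change was -0.04 (SE 0.029, edgeR FDR = 0.205). Its called length fell without overlap, from 30600, 35200 and 33800 bp untreated to 26400, 22600 and 19800 bp after maltonis. With the called length as an offset in edgeR its log2 fold change was 0.34 (FDR = 0.00815), not called. Of the other RUNX1 regions, the one just upstream at 132.0 to 149.0 kb had a log2 fold change of -0.15 (edgeR FDR = 0.00216). The one at 16.8 to 25.2 kb, inside the gene beside the distal promoter region, was at -0.50 (edgeR FDR = 9.98e-06). Both were under the size asked for. The region at 16.8 to 25.2 kb was called lower with upper-quartile scaling (-0.62) and when merging within 1000 bp joined it to the distal promoter region (-0.82). Within each library the log2 ratio of distal to proximal reads, which needs no scaling between libraries, was -0.92, -0.99 and -1.07 in untreated cells and -1.91, -2.11 and -1.89 after maltonis. The groups did not overlap, and their means differed by -0.977 on the log2 scale (-0.996 ± 0.0747 against -1.97 ± 0.121, SD, n = 3 each, exact two-sided permutation p = 0.1). This ratio was chosen after the values had been seen.

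A further 3 H3K27ac regions of RUNX1, in the long stretch between the promoters, were listed in all 3 untreated libraries and in none of the maltonis libraries. They lay at 35.2 to 43.6 kb (chr21:36378001-36386400), 64.2 to 67.6 kb (chr21:36354001-36357400) and 78.0 to 82.8 kb (chr21:36338801-36343600), and were between 2400 and 8400 bp long in each untreated list. The only other such region in the 6 windows was at SPI1, so 4 of the 22 regions were untreated-only and 0 were maltonis-only, beside 6.04% and 1.65% of all regions. A region missing from a list can hold signal under the threshold of that list.

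**Figure D2:**
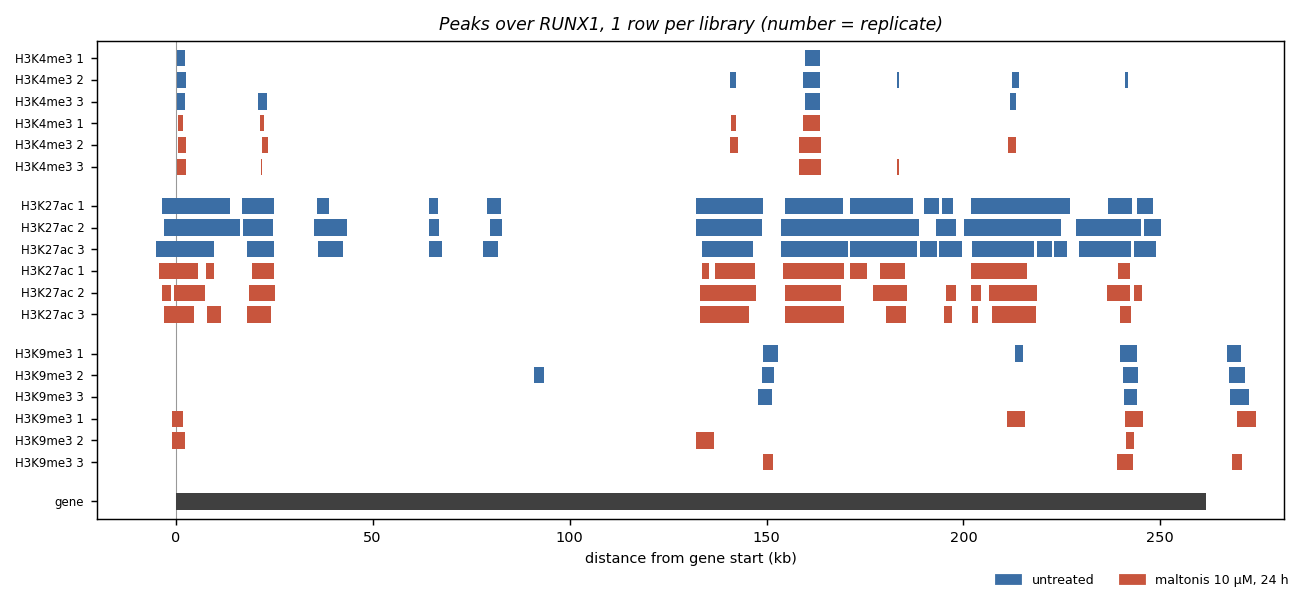
Peaks over RUNX1 by distance from the gene start in kb (x axis), with 1 row for each of the 18 libraries, untreated in blue and maltonis in red, and the gene in grey. H3K27ac is shorter around the distal promoter at 0 and broken up towards the 3′ end, 3 isolated H3K27ac peaks between 35.2 and 82.8 kb are in untreated rows only, and the peak block over the proximal promoter is in all 6 rows.

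These calls depend on what a read count per region means. Reads were counted inside called peaks, so a shorter peak holds fewer reads. With the called length as an offset in edgeR, 0 of the 15 regions were called, the RUNX1 distal region had a log2 fold change of -0.55 (FDR = 0.00542), just under the size asked for, and the last RUNX1 region was at 0.14. The same offset on regions merged without untreated replicate 2 did call the RUNX1 distal region lower (-0.60, FDR = 0.00955). The distal over proximal ratio taken per kb of called length differed between groups by -0.881 on the log2 scale, close to its value from reads. The parts of the 2 ratios were not alike. Per kb, the distal region went from a mean of 128.1 to 95.0 reads and the proximal region from 130.3 to 179.7, both without overlap. By reads, the proximal region overlapped between groups. When regions were merged without untreated replicate 2, whose long peaks join neighbours, an alternative added after the data were seen, the proximal region split: the part at 153.8 to 170.6 kb was at 0.09 (edgeR FDR = 0.0196) and the part at 171.2 to 188.2 kb at -0.67 (edgeR FDR = 0.00354, called lower). Merging peaks within 1000 bp joined the region at 200.2 to 227.0 kb to the one over the proximal promoter, and the joined region was at -0.25 and not called.

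IRF8 was the other gene with a lower H3K27ac region. The region over its start (chr16:85919801-85938000, -13.0 to 5.23 kb) held 774, 868 and 813 reads in untreated and 413, 491 and 487 in maltonis libraries. No libraries overlapped, and the log2 fold change was -0.78 (SE 0.0633, edgeR FDR = 4.67e-06). The region at 7.03 to 21.0 kb varied widely, with 403, 269 and 436 against 334, 246 and 219 reads (log2 fold change -0.42, edgeR FDR = 0.128). The region from 21.2 to 59.2 kb downstream, where IRF8 enhancers are known, held 1229, 1418 and 1456 reads and then 1150, 1514 and 1221, which overlapped (log2 fold change -0.04, edgeR FDR = 0.645). Merged without untreated replicate 2, the IRF8 start region split, and the call passed to the upstream part at -13.0 to -5.57 kb (log2 fold change -1.26, edgeR FDR = 2.65e-04), while the part over the start was at -0.51 (edgeR FDR = 0.00424). With the length offset the whole start region was at -0.20 (edgeR FDR = 0.209) and not called.

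GFI1, whose product represses monocytic genes, was the 1 gene of the 6 with a positive log2 fold change of H3K27ac. Its region (chr1:92919001-92959600, -7.17 to 33.4 kb) covers the whole gene and was the richest in reads of the 15, with 9451, 9946 and 9842 reads in untreated and 10508, 12446 and 11603 in maltonis libraries. Every maltonis library was higher, and the log2 fold change was 0.28 (SE 0.0183, edgeR FDR = 1.07e-06), under the size needed for a call. With the length offset it was 0.16 (edgeR FDR = 0.0291).

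SPI1, CEBPA and CEBPE had small shifts of H3K27ac that were not called. The SPI1 gene region (chr11:47375201-47401200) held 3261, 3115 and 3215 reads and then 2691, 2961 and 2817, all lower (log2 fold change -0.14, edgeR FDR = 0.00841), while the region upstream, which spans its upstream element, was at -0.06 (edgeR FDR = 0.0344). A region in the SPI1 window, past the 3′ end of the gene and 25.3 to 30.9 kb from the start (chr11:47369201-47374800), was in all 3 untreated lists and in no maltonis list. CEBPA had 2176, 2238 and 2266 reads over its start (chr19:33781401-33797800) in untreated and 1683, 1886 and 1756 in maltonis libraries, lower in every one (log2 fold change -0.28, edgeR FDR = 2.41e-05). Its downstream region at 15.1 to 56.3 kb, where the known enhancer lies, held 3941, 4149 and 3910 reads and then 3700, 4131 and 3718 (log2 fold change -0.01, edgeR FDR = 0.768). CEBPE was part of 1 long region (chr14:23531001-23592000, -3.18 to 57.8 kb) with 7302, 7739 and 7437 reads and then 6321, 7157 and 6789 (log2 fold change -0.10, edgeR FDR = 0.00116). Merged without untreated replicate 2, the CEBPE start (-2.78 to 11.4 kb) was at -0.31 (edgeR FDR = 1.98e-05) and the rest (12.2 to 57.8 kb) at 0.13 (edgeR FDR = 0.00708). The start and the downstream part had opposite signs, neither of them called. Most of the downstream part lay outside the CEBPE window, which ends 20 kb past the gene.

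**Figure D3:**
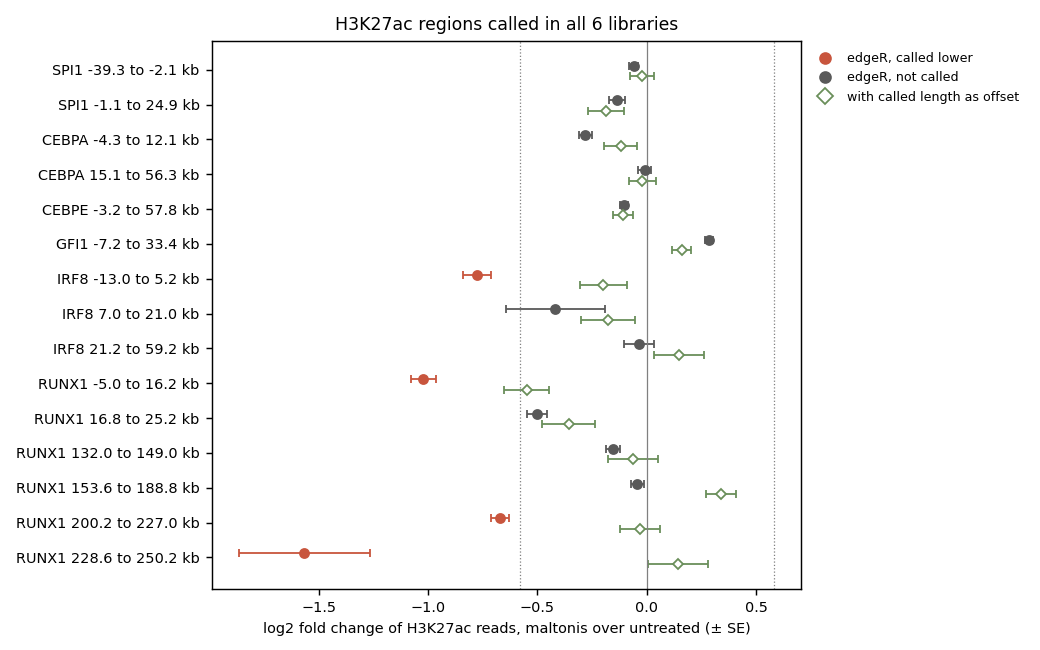
Log2 fold change of H3K27ac reads, maltonis over untreated, with its standard error (x axis) for the 15 regions called in all 6 libraries (y axis, distance from the gene start); circles are the edgeR values, red where called, diamonds the values with called length as offset, and dotted lines the 0.58 threshold. The 4 called regions lie left of the dotted line, at -1.56, -1.02, -0.78 and -0.67, and all diamonds lie inside the lines.

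Of the 15 regions, 9 had a lower called length in every maltonis library and 0 had a higher one. Over the genome 28.2% were lower and 3.84% higher. Lengths did not always move with the reads. The RUNX1 proximal promoter region and the SPI1 upstream region were shorter without overlap, while their reads overlapped. RUNX1 had 5 of the 9, and SPI1, CEBPA, CEBPE and IRF8 had 1 each. GFI1 had none.

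Seen at single peaks on the gene start, the order of the genes by H3K27ac reads per kb of peak in untreated cells was GFI1 (259.9 ± 0.744), CEBPE (259.7 ± 77.7), SPI1 (238.1 ± 35.6), CEBPA (150.8 ± 14.4), RUNX1 (128.1 ± 12.6) and IRF8 (57.5 ± 4.14), each as mean ± SD of 3 libraries. The first 3 overlapped in their libraries. CEBPA and RUNX1 overlapped too (142, 143 and 167 against 117, 125 and 142 reads per kb), and IRF8 lay below all others. The gene of the monocytic factor thus had the least H3K27ac per kb of start peak.

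The start peak of RUNX1 held 2175, 2252 and 2072 H3K27ac reads untreated and 963, 927 and 937 after maltonis, and its width went from 17400, 19200 and 14600 bp to 9800, 7800 and 7600 bp. Both fell without overlap, to 0.435 and 0.492 of the untreated mean (exact permutation p = 0.1 each), while reads per kb overlapped (128.1 ± 12.6 against 113.5 ± 13.4). Counted only within 2.5 kb of the start, the RUNX1 H3K27ac length overlapped as well (exact permutation p = 1). Peaks of both groups ran across the whole of this span, so this length cannot show whether they became shorter. IRF8 went from 510, 676 and 484 reads to 288, 365 and 377, and CEBPE from 3984, 6292 and 4098 to 2975, 3426 and 3159. Both were lower without overlap (exact permutation p = 0.1 each), with the value of 6292 reads from the long joined peak of untreated replicate 2. GFI1 was higher, with 9367, 9946 and 9842 reads and then 10508, 12318 and 11603 (ratio 1.18, exact permutation p = 0.1). SPI1 and CEBPA overlapped. By reads 3 of 6 start peaks were lower and 1 was higher, beside 35.8% and 29% of merged regions over the genome, so these counts are near the background.

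**Figure D4:**
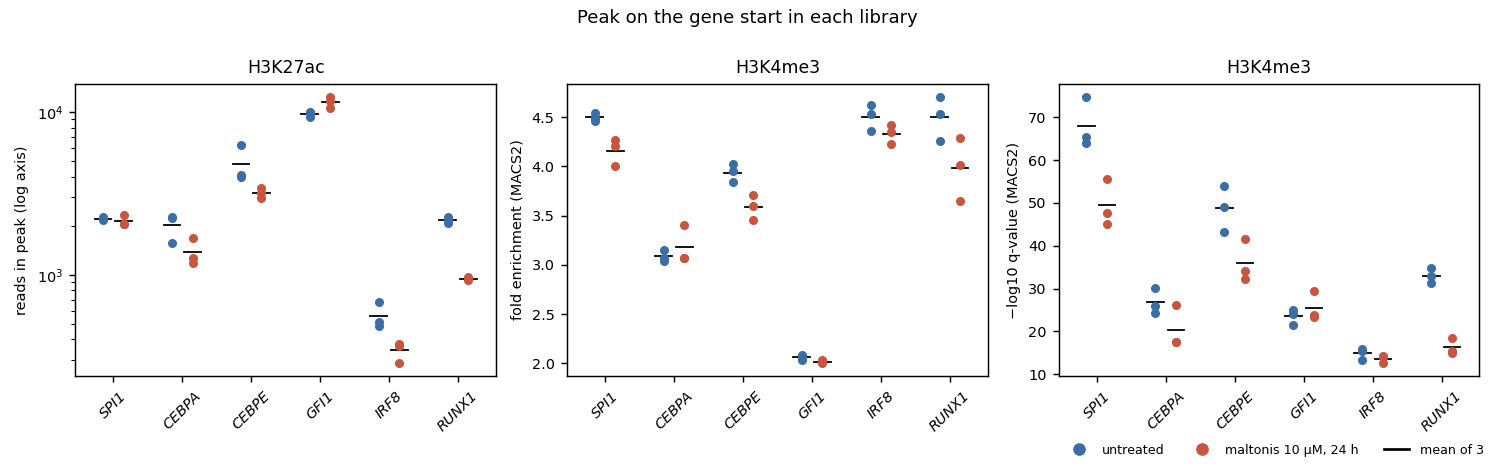
Peak on the start of each gene (x axis) in every library: H3K27ac reads on a log axis (left), H3K4me3 fold enrichment (middle) and H3K4me3 −log10 q-value (right), with bars for the mean of 3. For H3K27ac reads RUNX1, IRF8 and CEBPE have every maltonis point (red) under every untreated point (blue), and GFI1 has every maltonis point above.

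H3K4me3 lay in peaks on or near the 6 starts, and no region passed the test between groups. The lists are of MACS2 broad peaks, in which a fold enrichment is a mean over the whole peak and not the height of a summit. Such a mean can depend on the width of its peak. Untreated start peaks had fold enrichments of 4.50 ± 0.138 at IRF8, 4.50 ± 0.226 at RUNX1, 4.50 ± 0.0409 at SPI1, 3.94 ± 0.0961 at CEBPE, 3.09 ± 0.06 at CEBPA and 2.06 ± 0.0263 at GFI1. The widths ran the other way in several genes: GFI1 had the widest start peak (5276 ± 241 bp), then CEBPA (3709 ± 142 bp), and IRF8 the narrowest (1272 ± 207 bp). The H3K4me3 peak of GFI1 began 883 bp inside the gene as given, downstream of the outermost start printed above.

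Coverage of the windows by H3K4me3 was higher without overlap after maltonis at 2 of 6 genes and lower at 0, beside 28.3% and 5.24% of 50 kb stretches. SPI1 had 4005, 3282 and 4464 bp untreated and 4921, 4936 and 4719 bp after maltonis (exact permutation p = 0.1). CEBPE had 2248, 2128 and 2158 bp and then 2255, 2613 and 2406 bp (exact permutation p = 0.1), with the lowest maltonis value close to the highest untreated one. The SPI1 difference lay mostly at an upstream peak (chr11:47415090-47417743, -17.6 to -15.0 kb), where widths were 1678, 1022 and 1744 bp untreated and 2550, 2564 and 2149 bp after maltonis. Its fold enrichment overlapped between groups (2.66 ± 0.263 against 2.92 ± 0.0703, SD, n = 3 each, exact permutation p = 0.2). With 5 kb flanks, which leave that peak out, the SPI1 coverage overlapped (exact permutation p = 1).

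By region, 19 H3K4me3 regions lay in the windows and 8 were called in all 6 libraries. Called lengths were higher in 4 of the 8 (2 at SPI1, 1 each at CEBPE and the proximal RUNX1 promoter) and lower in 1, at CEBPA, beside 54.8% and 3.99% over the genome. In fold enrichment limma called 0 of 8 in either direction, beside 0.449% higher and 0.481% lower over 12470 regions, and at an unadjusted p under 0.05 it gave 5 of 8 higher and 0 lower, beside 42.1% of all regions in either direction. The values nearest to a call were the SPI1 upstream region (log2 fold change 0.30, limma FDR = 0.0266) and CEBPA (0.20, limma FDR = 0.0204), after each library had been centred on its median. Without centring the median of all regions was -0.14, and the signs at the starts of SPI1, CEBPE, IRF8 and GFI1 and at the proximal RUNX1 promoter turned negative. Uncentred fold enrichment of the start peak was lower without overlap in 3 of 6 genes, SPI1 (4.50 to 4.16), CEBPE (3.94 to 3.59) and GFI1 (2.06 to 2.02), beside 52.8% of regions over the genome.

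At RUNX1 both promoters carried H3K4me3. The distal peak (chr21:36419090-36421303 in merged form) had a −log10 q-value of 31.3, 34.8 and 33.0 in untreated and 15.4, 18.4 and 15.1 in maltonis libraries, lower without overlap (exact permutation p = 0.1). The proximal peak (chr21:36257750-36263282), chosen after its H3K27ac had been seen, had 25.5, 20.7 and 22.0 and then 21.1, 26.8 and 21.8, which overlapped (exact permutation p = 0.7). Its width went from 3813, 4246 and 3781 bp to 4266, 5487 and 5480 bp, higher without overlap (exact permutation p = 0.1). Fold enrichment overlapped between groups at both promoters (4.50 ± 0.226 against 3.99 ± 0.322 at the distal, 2.44 ± 0.0203 against 2.42 ± 0.0269 at the proximal). A q-value also depends on the depth of its library, which was not analysed here, and it was lower without overlap at the starts of SPI1 and CEBPE too. The share of all H3K4me3 regions with a lower q-value was not computed, so the fall cannot be called particular to RUNX1.

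CEBPA had the 1 start peak with a lower H3K4me3 width, at 3761, 3818 and 3549 bp untreated and 3535, 3380 and 3380 bp after maltonis, without overlap but with the closest values almost equal (exact permutation p = 0.1). A second CEBPA peak, 8.39 to 9.62 kb from the start (chr19:33783849-33785084), was listed in 1 untreated and all 3 maltonis libraries. A RUNX1 peak at 20.9 to 23.3 kb, inside the gene, was likewise in 1 untreated and 3 maltonis libraries.

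**Figure D5:**
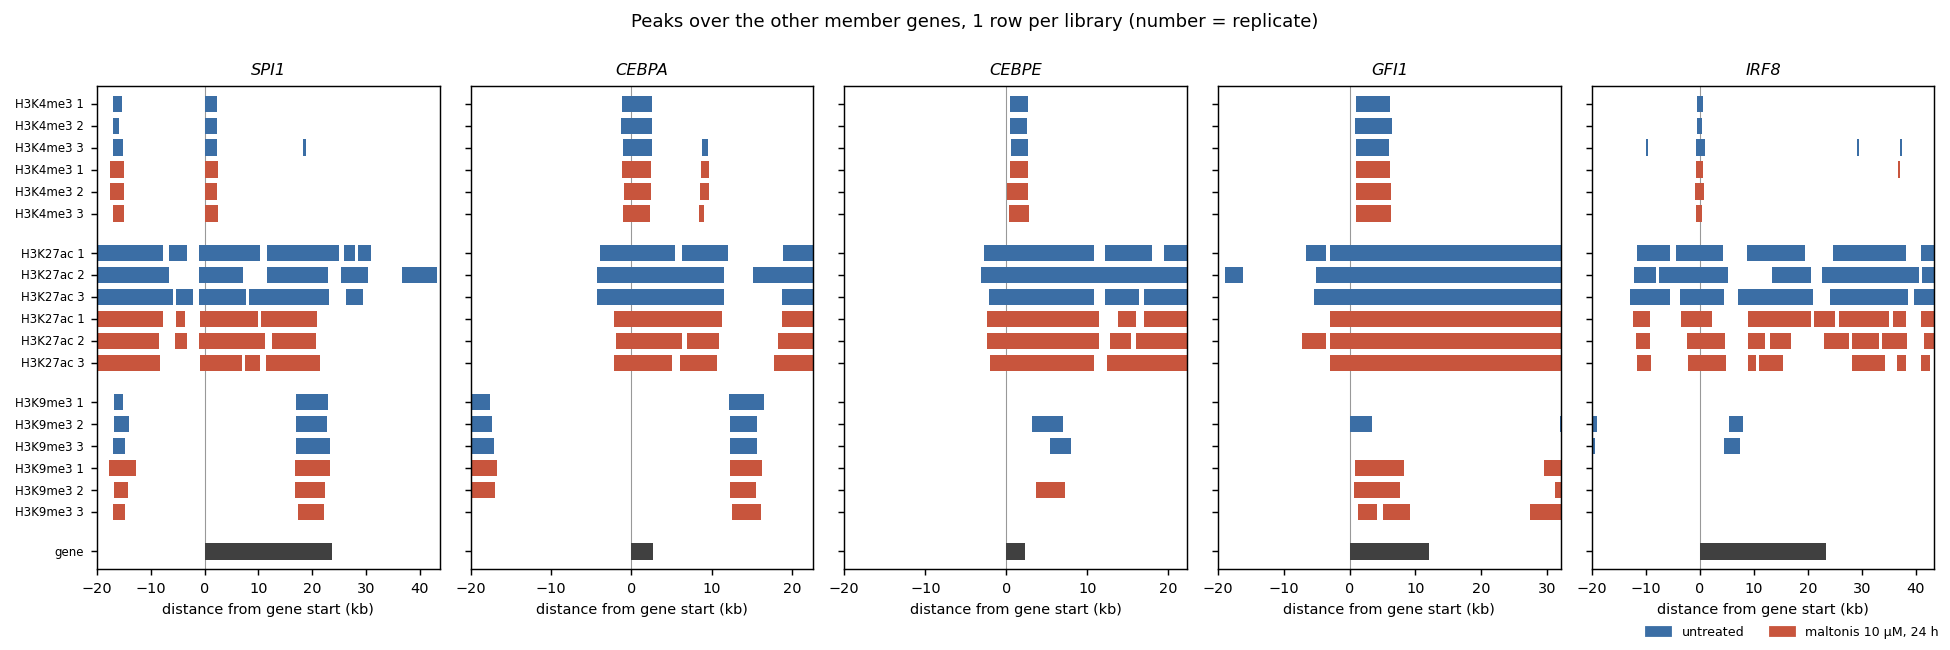
Peaks over the other 5 genes by distance from the gene start in kb (x axis), with 1 row for each of the 18 libraries, untreated in blue and maltonis in red, and the gene in grey. H3K9me3 over GFI1 is in 1 untreated and 3 maltonis rows, and the SPI1 upstream H3K4me3 peak near -17.6 kb is wider in the maltonis rows.

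H3K9me3 was sparse at these genes, and GFI1 was the only gene whose coverage did not overlap between groups. Its window had 0, 3483 and 0 bp under H3K9me3 peaks in untreated and 9883, 7883 and 11883 bp in maltonis libraries (1161 ± 2011 against 9883 ± 2000 bp, SD, n = 3 each, exact permutation p = 0.1), higher in each maltonis library. Part of this lay inside the gene, in a region 0.033 to 9.23 kb from the start (chr1:92943201-92952400) that was listed in 1 untreated library with 60 reads and in all 3 maltonis libraries. The other part was at the edge of the window, in a region (chr1:92914001-92925000) listed in all 6 libraries, with 97, 93 and 101 reads and then 99, 86 and 135 (log2 fold change 0.28, edgeR FDR = 0.704). One gene of 6 was higher without overlap and 0 lower, beside 4.09% and 7.49% of 50 kb stretches, and with 50 kb flanks the GFI1 groups overlapped (exact permutation p = 0.2).

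The other genes overlapped in H3K9me3 coverage. IRF8 had 27, 3627 and 3627 bp untreated and 0, 227 and 0 bp after maltonis (exact permutation p = 0.2), with a region at 4.43 to 8.03 kb in 2 untreated and 0 maltonis lists. The RUNX1 distal promoter had a region (chr21:36419201-36422600, -1.01 to 2.39 kb) in 0 untreated and 2 maltonis lists, with 46 and 53 reads, over the distal H3K4me3 peak. CEBPE had 1 region, 3.22 to 8.02 kb from the start, in 2 untreated and 1 maltonis lists. CEBPA had a region at 12.1 to 16.5 kb, listed in all 6 libraries. Its reads were lower without overlap, with 86, 82 and 87 untreated and 75, 53 and 46 after maltonis. It was not called, and it did not reach an unadjusted p under 0.05 by edgeR. The share of all H3K9me3 regions with reads apart between groups is not given here. The difference can thus not be called particular to this region, nor that of the SPI1 region below to SPI1. SPI1 carried H3K9me3 in all 6 libraries at 16.7 to 23.3 kb in the gene and at -17.7 to -12.7 kb, over the upstream H3K4me3 peak. The upstream region had 34, 48 and 48 reads and then 87, 55 and 45 (log2 fold change 0.63, edgeR FDR = 0.285), where 2 of the 3 maltonis libraries lay above every untreated one, and all 3 did after TMM scaling (17.3 ± 2.82 against 26.7 ± 7.35 CPM of reads in regions, SD, n = 3 each). edgeR called 0 of the 5 regions listed in all 6 libraries and DESeq2 0, beside 0.253% higher and 0.0141% lower over 14226 regions by edgeR and 0.928% and 0.274% by DESeq2. At an unadjusted p under 0.05, edgeR gave 1 higher and 0 lower of the 5, beside 14.1% of all regions in either direction.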

How the data were processed

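The authors aligned reads to hg19 and called peaks for each library with MACS2 (H3K4me3) and epic2 or SICER (H3K27ac, H3K9me3), the submitters' processing notes naming BWA, SAMtools, MACS2 and SICER without versions. The deposited H3K4me3 lists give a score, a fold enrichment (a ratio) and −log10 p- and q-values. The deposited H3K27ac and H3K9me3 lists give a count of ChIP reads and a score per region. No read-level depth was used, so precision is limited by reads in peaks and by 3 libraries per group.

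The 6 members, all named in every comparison, and the regions printed (those covering or nearest to a start, passing a test, listed in 1 condition only, or longest) follow a fixed rule, with further regions named after their values were seen. The members and lists were chosen with earlier results of these data known. Start peaks covered or lay within 1 kb of a start. Covered lengths were compared by exact permutation, merged regions (overlap of at least 1 bp) by edgeR 4.0.16 quasi-likelihood tests (TMM) or limma 3.58.1 with trend on log2 fold enrichment centred on medians (R 4.3.3). DESeq2 1.42.0 was an alternative. Scripts were tested on simulated data. A further fixed list of myeloid factor genes was not analysed here, since no hg19 annotation was used.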

Additional observations from a re-analysis of the deposited data

How the results depend on the processing

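Directions and calls at the members were recomputed under flank, floor, merging and scaling alternatives, and with each library left out. The 4 H3K27ac calls at the members held with each library left out of the fit, with DESeq2 and with the replicate block, all on regions merged from 6 libraries. With called length as an offset 0 of the 15 regions were called. Merging without untreated replicate 2 moved the IRF8 call to the upstream part, with the part over the start at -0.51 and not called. Merging within 1000 bp took away the call of the RUNX1 region at 200.2 kb. H3K27ac calls over the genome (1637 higher, 3840 lower) became 427 and 916 with called length as an offset, 984 higher with upper-quartile scaling, and 213 and 565 with the offset on regions merged without untreated replicate 2. H3K9me3 calls (36 and 2) became 132 and 39 with DESeq2, 17 and 6 with the offset, and 20 and 1 with merging within 1000 bp, and H3K4me3 calls (56 and 60) 12 and 269 without centring and 25 and 39 at a mean fold enrichment of at least 4. Requiring 50% of a peak inside the window left 2 genes lower in H3K27ac coverage, and CEBPA then differed by 40.7 bp upwards. H3K4me3 coverage was lower at 1 gene with 5 kb flanks (and higher at 1), with the common floor and with the strongest 75% of peaks, since CEBPA turned to -278 bp in each. IRF8 turned to 149 bp in these and to 1284 bp with 50 kb flanks. With 50 kb flanks H3K9me3 coverage was lower at 1 gene and higher at 0, and CEBPA turned to 587 bp. RUNX1 H3K9me3 turned to 533 bp with 5 kb flanks and 867 bp with the floor, and SPI1 to -400.0 bp with 5 kb flanks. Summed within 2.5 kb of the start, H3K4me3 width was lower at 0 genes, GFI1 turned to -1.67 bp and SPI1 H3K27ac to -276 bp. Of the following sign changes, those of the RUNX1 region at 228.6 kb and of the RUNX1 part at 171.2 kb took away a call. With the offset, log2 fold changes turned to 0.147 (IRF8 21.2 kb), 0.142 (RUNX1 228.6 kb), 0.338 (RUNX1 153.6 kb) and -0.13 (GFI1 H3K9me3). Merged without untreated replicate 2 they turned to 0.112 (IRF8) and 0.00338 (CEBPA), and with the offset as well to 0.332 (IRF8), 0.26 (RUNX1 171.2 kb) and 0.00205 (SPI1). Without centring, H3K4me3 turned to -0.0289 (GFI1), -0.113 (SPI1), -0.136 (CEBPE), -0.0557 (IRF8) and -0.0159 (RUNX1 proximal). Quantile scaling gave -0.0257 (GFI1) and -0.0117 (CEBPE), and the minimum of 4 gave 0.00305 (RUNX1 distal). The cause was not tested.

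Leaving out 1 library gave 1 to 12 higher and 0 lower H3K9me3 calls, 1044 to 1423 H3K27ac regions with a higher length, 635 to 794 H3K4me3 regions with a lower one, and 1221 to 1914 higher and 1196 to 1733 lower for H3K9me3. Genes lower numbered 2 to 4 (H3K27ac start width), 3 to 5 (H3K4me3 fold enrichment), 1 to 2 (H3K4me3 width) and 0 to 1 (H3K9me3 coverage). Differences spanned zero for H3K27ac start width at CEBPE (-11733 to 167 bp) and SPI1 (-167 to 2133 bp), for H3K4me3 coverage and width at GFI1 (-66.8 to 174 bp), for coverage at IRF8 (-387 to 378 bp) and RUNX1 (-719 to 1869 bp), and for H3K9me3 coverage at CEBPA (-1445 to 390.0 bp), RUNX1 (-3533 to 367 bp) and SPI1 (-733 to 1567 bp). They did so too for fold enrichment at CEBPA (-0.0172 to 0.149) and for the log2 fold changes of CEBPA 15.1 kb (-0.0386 to 0.00294), IRF8 21.2 kb (-0.119 to 0.00258), GFI1 H3K9me3 (-0.0345 to 0.442) and RUNX1 distal H3K4me3 (-0.0866 to 0.037).

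The within-library RUNX1 ratio kept its direction and separation with each library left out, per kb of called length and with the replicate block, from -0.881 to -1.02. It was not computed on regions merged within 1000 bp or without untreated replicate 2. Those alternatives joined or split the regions it is taken from.

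Replicate numbers did not pair the libraries (correlations of same-numbered deviations -0.0205 to 0.0297). With the replicate block, H3K9me3 calls were 11 higher and 0 lower, 2 genes had a lower H3K4me3 start width and 1 gene a lower H3K9me3 coverage, the smallest exact p of a sign flip being 0.25.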
